A study of Sus scrofa with 9 samples.

Results

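Stearoyl-CoA desaturase (SCD) and 6 other genes of fatty acid metabolism, namely FASN, ACACA, ACLY, SREBF1, ELOVL6 and ACADL, were followed in T cells that had been sorted from sow blood into 3 fractions. The members are all array probes whose sequence accession, without its version, belongs to 1 of these 7 pig genes in the RefSeq annotation of Sscrofa11.1. That rule found 25 of the 43603 probes, for 6 of the 7 genes, and ELOVL6 had no probe. Testing required a probe to stand well above background on each of the 3 arrays of some fraction. This held for 14 of the 25 probes, covering 5 genes, and for 16024 probes in all. These were 6 of 9 SCD probes, 1 of 3 for FASN, 2 of 3 for ACLY, 2 of 2 for SREBF1, 3 of 6 for ACADL and 0 of 2 for ACACA. SCD was chosen by measured values, since 2 of its probes passed the test between CD3+CD4+CD8+ and CD3+CD8+ cells in these data. That contrast is therefore given for the members as a description, and the other contrasts share arrays with it.

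Fatty acid synthesis starts in the cytosol, where ACLY, ATP citrate lyase, splits citrate into acetyl-CoA. ACACA, acetyl-CoA carboxylase, turns this into malonyl-CoA, from which FASN, fatty acid synthase, builds palmitate, and ELOVL6 lengthens it. SCD then puts a double bond into the saturated chain. SREBF1 encodes SREBP-1, a transcription factor that raises the genes of this route, while ACADL, long-chain acyl-CoA dehydrogenase, works in the opposite direction, at the start of each round of mitochondrial beta-oxidation. T cells draw on fatty acid synthesis when they are activated and grow, and resting T cells rely more on oxidation.

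The study measured RNA on 9 single-colour Agilent pig arrays, 3 from each fraction. Double positive CD3+CD4+CD8+ cells (DP), CD3+CD4+ cells (the CD4 fraction) and CD3+CD8+ cells (the CD8 fraction) were all sorted from mononuclear cells of sow blood, which a density gradient had enriched. The cells carry no treatment or genetic change in the labels, and the number and age of the sows and the purity of the sorts are not given in the sources used here. GEO's labels call the 3 arrays of a fraction biological replicates without naming the animals, and further numbers carried by the deposited files, whose meaning is not given, were not used, so the p-values measure the spread between these arrays.

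Levels are log2 signals relative to the 75th percentile of the array, so a probe at 0 equals that percentile, and levels are never compared between probes. That percentile lay between 15.1 and 83.7 on the 9 arrays, and 32.6% to 53.7% of the probes were well above background. The arrays lay on 3 slides. DP array 1 was alone on slide 1. Slide 2 held DP array 2, CD4 array 2 and CD8 arrays 1 and 2, and slide 3 held DP array 3, CD4 arrays 1 and 3 and CD8 array 3. CD3E and CD3G, CD3 chains of the T cell receptor complex, were well above background on all 9 arrays, as were 6 of the 8 T cell markers with a probe. CD4 read 1.101 to 2.79 in DP and in CD4 cells and -3.26 to -0.79 in the CD8 fraction, and CD8A read 2.85 to 5.82 in DP and in CD8 cells and -0.40 to 0.95 in the CD4 fraction, as the sorts were labelled. In sorted bulk samples, fewer cells that carry a transcript and less of it per cell cannot be told apart.

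By the means of the fractions, SCD was lowest in DP, intermediate in the CD4 fraction and highest in the CD8 fraction. Its brightest probe, A_72_P088586, gave a signal well above background on each of the 9 arrays. DP arrays 1 to 3 read 1.75, 0.45 and 0.42, the CD4 arrays 2.74, 2.34 and 2.47, and the CD8 arrays 4.74, 4.50 and 2.89. Every DP array was below every CD4 array, and every CD4 array was below every CD8 array, although CD8 array 3 exceeded CD4 array 1 by little. Of all tested probes 0.212% had this order without overlap. Nothing is read from this share, since the contrast of DP with CD8 chose SCD. On 5 of the 6 tested SCD probes the CD4 and CD8 arrays overlapped. The means were 0.87 ± 0.76 in DP, 2.52 ± 0.20 in CD4 cells and 4.04 ± 1.00 in CD8 cells (SD, n = 3 each), and array 3 was the low one of the CD8 fraction.

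Another SCD probe, A_72_P564094, was also well above background on every array. It read 1.55, 0.29 and 0.01 in DP, 2.68, 2.30 and 2.10 in CD4 cells and 4.27, 4.51 and 2.44 in CD8 cells. DP lay below both other fractions, whereas CD8 array 3 fell among the CD4 arrays. A_72_P578058 read 0.77, 0.17 and -1.74 in DP, 2.20, 0.97 and 1.15 in CD4 cells and 3.71, 3.91 and 1.59 in CD8 cells. DP was again the lowest fraction, and DP array 3 was not well above background by this probe.

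The other 3 tested SCD probes separated the fractions less clearly. A_72_P600413 had means of -1.31 ± 0.92 in DP, 0.23 ± 0.51 in CD4 cells and 0.85 ± 0.81 in CD8 cells (SD, n = 3). A_72_P647153 had -1.26 ± 1.36, -0.52 ± 1.11 and 0.53 ± 1.19 in the same order, and its fractions overlapped in all 3 comparisons. A_72_P582991 had -2.08 ± 0.61, -1.35 ± 1.48 and -0.26 ± 0.58, and was well above background on 1 of 3 DP arrays. A_72_P647153 and A_72_P582991 were tested only because all 3 CD8 arrays were well above background, where SCD is high, so their direction is favoured by the detection rule. The probes also share the transcript and the arrays, so these are repeated readings of 1 gene and not independent evidence.

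**Figure D1:**
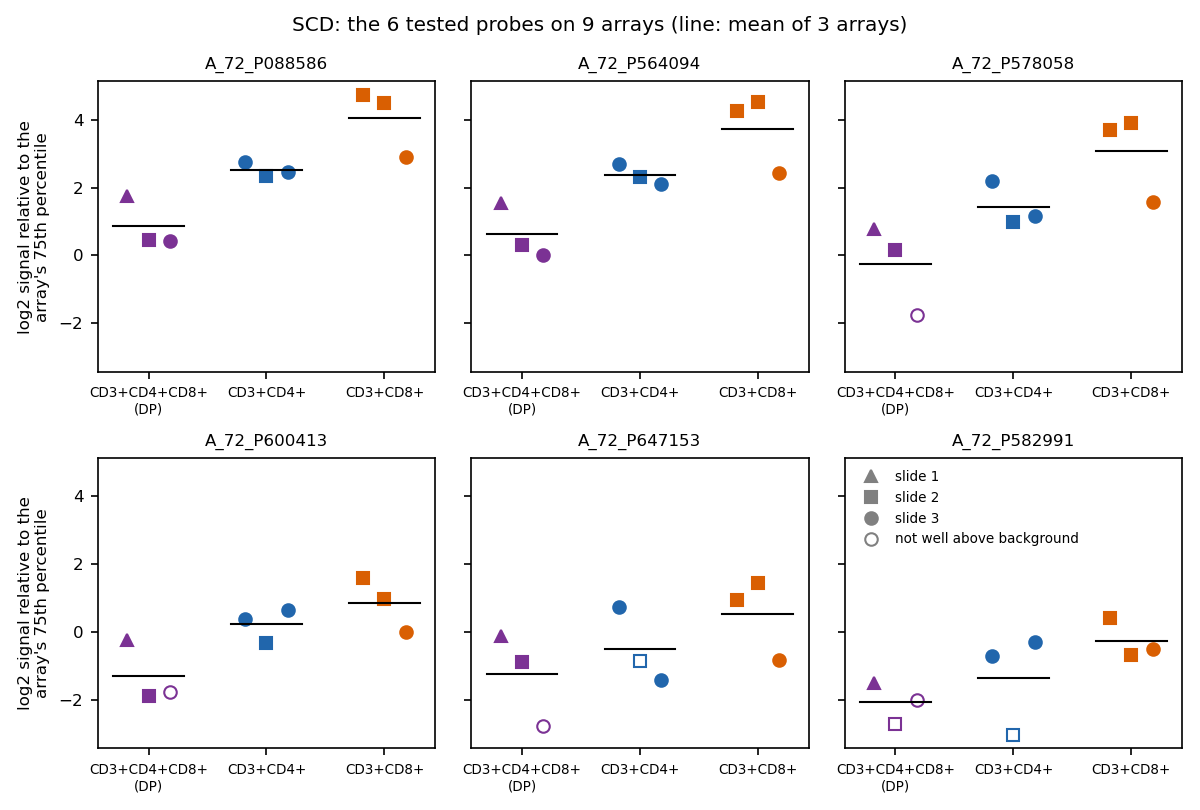
Level of SCD by its 6 tested probes (log2 signal relative to the 75th percentile of each array, y axis) in the 3 fractions (x axis), with 1 symbol per array, its shape giving the slide, open where not well above background, and a line at the mean of 3 arrays. DP is the lowest fraction on the 3 probes of the upper row, and CD8 array 3, the circle in the CD8 fraction, reads 2.89 by A_72_P088586 beside 4.74 and 4.50 on the other CD8 arrays.

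The 6 tested SCD probes read high and low on much the same arrays, least so A_72_P582991. Over the 9 arrays the 15 pairs of probes had Pearson correlations between 0.49 and 0.99, with a median of 0.84. The highest was between A_72_P088586 and A_72_P564094 and the lowest between A_72_P647153 and A_72_P582991. After the mean of each fraction was subtracted, the median was 0.77 and the range 0.15 to 0.97. The pairs share scaling and fraction, so these values are a description. The 3 SCD probes left untested were well above background on 5, 4 and 1 of 9 arrays, and correlated with A_72_P088586 at -0.05, 0.19 and 0.25. One of them, A_72_P586756, was brightest on DP array 3, at 1.46, where the tested probes read low.

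Between DP and the CD8 fraction, the contrast that chose the gene, A_72_P088586 was 9.01-fold lower in DP (log2 -3.17, SE 0.53) and A_72_P564094 was 8.70-fold lower (-3.12, SE 0.57). A_72_P578058 gave -3.33 (SE 0.72), and the other 3 gave -2.16, -1.82 and -1.78. Of the 6 tested SCD probes 2 passed limma's adjusted threshold of 0.05, beside 0.312% of all tested probes, and this count is no result, since it made the choice. Just inside the threshold lay A_72_P564094, with a limma adjusted p = 0.0453, and just outside it A_72_P578058, with 0.101. On 5 of the 6 probes all DP arrays lay below all CD8 arrays, as did 5.15% of all tested probes, and nothing is read from this count either. The deviations of equally numbered DP and CD8 arrays from their fraction means correlated at 0.266, 0.329 and 0.33. With the replicate number as a block, 3 SCD probes passed, A_72_P578058 being the one added, and 83 probes passed in all beside 50 without the block. The authors' processed table numbers the CD8 arrays differently from the scanner files, and with its numbers 21 probes passed, none of them for SCD.

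The size of this difference varied between slides. For A_72_P088586 DP minus CD8 was -4.17 on slide 2 and -2.48 on slide 3, each with 1 DP array. With slide as a block it was -3.52 and did not pass (limma adjusted p = 0.085), and DP array 1, alone on its slide, then carries no weight in it. With normexp background correction it shrank to -2.05 (adjusted p = 0.189). Without any single DP array or without CD8 array 1 or 2 it also missed the threshold, at -3.61, -2.96 and -2.94 for DP arrays 1, 2 and 3 and at -2.82 and -2.94 for CD8 arrays 1 and 2. It missed it too without CD4 array 2, which enters only through the shared spread (-3.17, adjusted p = 0.0665).

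Between DP and the CD4 fraction SCD was lower in DP on all 6 probes and passed on none, where 0.293% of all tested probes passed. A_72_P088586 differed by -1.64 (SE 0.53, 95% interval -2.79 to -0.50, limma adjusted p = 0.422), or 3.13-fold. A_72_P564094 gave -1.74 (SE 0.57, adjusted p = 0.455) and A_72_P578058 gave -1.71 (SE 0.72, adjusted p = 0.876). At an unadjusted p under 0.05 there were 4 of the 6 probes, and 4.84% of all tested probes. On 3 of the 6 all DP arrays lay below all CD4 arrays, as did 4.87% of all tested probes. Nothing is read from these counts, since the DP arrays took part in choosing SCD and its probes are repeated readings of the same gene. By A_72_P088586 the difference was -1.89 on slide 2 and -2.19 on slide 3.

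Between the CD4 and CD8 fractions the SCD differences were smaller than between DP and CD8, and varied with the slide. A_72_P088586 gave -1.53 for the CD4 minus the CD8 fraction (SE 0.53, 95% interval -2.67 to -0.38, limma adjusted p = 0.64), and none of the 6 probes passed, where 0.437% of all tested probes did. At an unadjusted p under 0.05 there were 3, beside 4.54% of all tested probes, and on 1 the fractions did not overlap, as 4.19% of all tested probes had the CD4 arrays below the CD8 arrays. These counts are likewise no result, since the CD8 arrays took part in choosing SCD and its probes are repeated readings. On slide 2 the CD4 minus CD8 difference of A_72_P088586 was -2.28, while on slide 3 it was -0.29. The other 5 probes lay between -0.04 and 0.53 on slide 3. CD8 array 3, the only CD8 array on that slide, carried an SCD level within or near the range of the CD4 arrays by these probes.

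**Figure D2:**
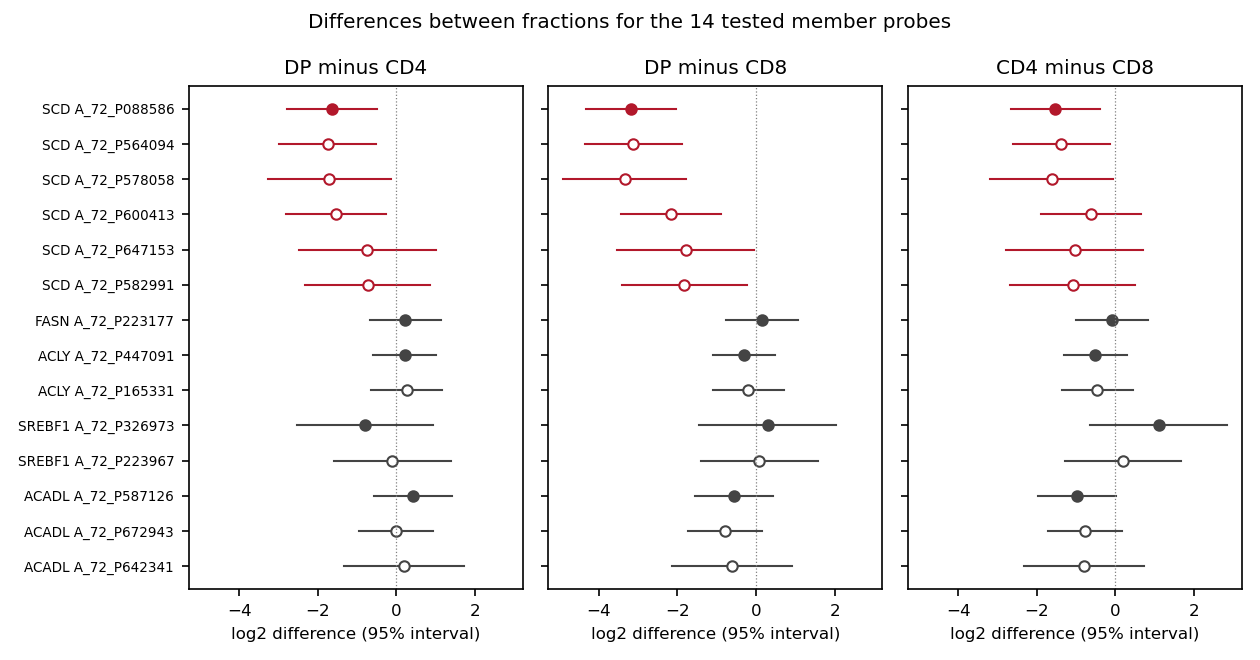
Difference between fractions (log2, x axis) of the 14 tested member probes, with 95% intervals from limma, in the 3 comparisons. Filled symbols are the brightest tested probe of each gene, and red marks SCD. A_72_P088586 lies at -3.17 in DP minus CD8. All intervals of FASN, ACLY, SREBF1 and ACADL reach 0, and so do 5 of the 18 SCD intervals.

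The summed B cell markers were also highest in the CD8 fraction, and their part in the SCD difference was not tested. Of 9 listed markers 4 had a probe, and CD79A, which signals for the B cell receptor, was the only one well above background on all arrays. MS4A1 was so on 5 arrays, while BLNK, a B cell adaptor gene, was well above background on no array. The summed signal of the 4, relative to the 75th percentile, was 0.482 to 2.95 in DP, 1.12 to 2.38 in CD4 cells and 5.64 to 12.6 in CD8 cells. Across arrays CD79A and SCD had r = 0.73 over 9 arrays, and r = 0.012 once the fraction means were subtracted. CD8 array 3, with the lowest SCD of its fraction, stood at 3.57 in CD79A, and CD8 arrays 1 and 2 at 3.51 and 2.40.

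**Figure D3:**
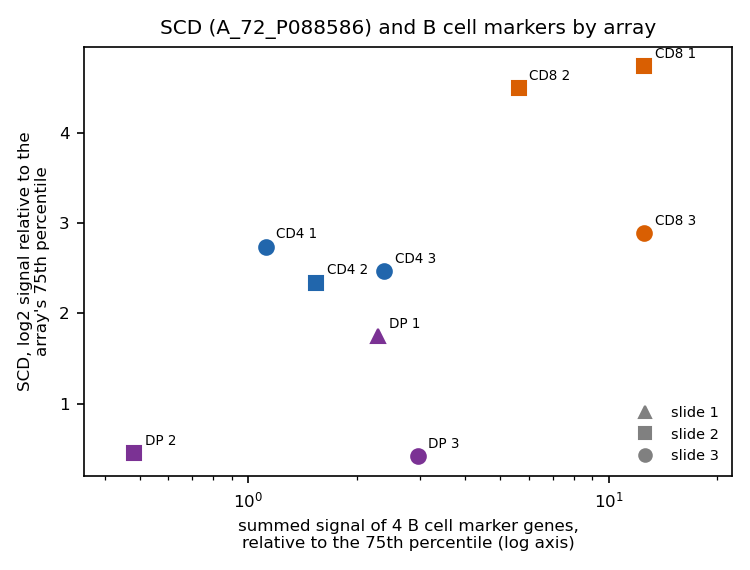
SCD level by A_72_P088586 (log2 relative to the 75th percentile, y axis) against the summed signal of 4 B cell marker genes (log axis, x axis), with 1 symbol per array, its shape giving the slide. The 3 CD8 arrays lie to the right, between 5.64 and 12.6, and upward, between 2.89 and 4.74.

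Markers of adipocytes, which carry much SCD, overlapped between the fractions. All 7 listed adipocyte genes had a probe, and ADIPOQ, PLIN1, FABP4 and CIDEA were well above background on no array. LEP, which encodes leptin, was well above background on all 9. The summed signals were 1.46 to 3.84 in DP, 1.61 to 3.46 in CD4 cells and 1.73 to 2.98 in CD8 cells. Monocyte and granulocyte markers, of which 10 of 14 had a probe and 7 were detected on some array, ranged from 1.76 to 12.985 in sum in DP, from 4.42 to 6.51 in CD4 cells and from 6.69 to 14.8 in CD8 cells. Among them CD163, S100A8 and S100A9 were well above background on no array. FCER1G, an Fc receptor chain, averaged -0.33 ± 2.17 in DP, -0.26 ± 0.60 in CD4 cells and 2.00 ± 0.20 in CD8 cells. AIF1, a macrophage gene, averaged -0.93 ± 1.54, -1.21 ± 0.33 and 0.74 ± 0.21 in the same order (SD, n = 3). Both were thus highest in the CD8 fraction, as SCD was, while DP overlapped it. LYZ, S100A12 and TYROBP also averaged highest there, but their fractions overlapped. SIRPA was instead lowest in the CD8 fraction, with means of 0.22 in DP, 0.55 in CD4 cells and -0.17 in CD8 cells. So was CD14, a probe left untested, at -1.59, -1.18 and -2.16. The listed markers thus shared no direction. The part of these markers in the SCD differences was not tested. Natural killer cell markers, 5 of 9 with a probe, summed to 43.8 to 113.0 in DP, 6.07 to 14.7 in CD4 cells and 31.1 to 81.7 in CD8 cells. The 4 platelet markers with a probe summed to 1.20 to 3.64 over all arrays. The single marker of gamma delta T cells with a probe, CD163L1, was not well above background on any array, and none of the 8 erythroid markers had a probe.

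Of the enzymes upstream of SCD only FASN and ACLY had a tested probe, and no difference between fractions passed for them. FASN was well above background on all 9 arrays by A_72_P223177. It read 1.29, 0.49 and 1.28 in DP, 0.58, 0.73 and 1.05 in CD4 cells and 1.28, 0.79 and 0.53 in CD8 cells. The fractions overlapped fully. DP minus the CD4 fraction was 0.23 (95% interval -0.68 to 1.14), DP minus the CD8 fraction 0.15 (-0.76 to 1.06) and the CD4 minus the CD8 fraction -0.08 (-0.99 to 0.83). The intervals leave room for changes of a size below that seen for SCD between DP and the CD8 fraction. The other 2 FASN probes were well above background on 4 and 2 of 9 arrays and were not tested.

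ACLY differed by small amounts. A_72_P447091 read 4.002, 3.44 and 4.42 in DP, 3.47, 4.01 and 3.76 in CD4 cells and 4.57, 4.09 and 4.11 in CD8 cells. All CD8 arrays lay above all CD4 arrays, with the CD4 minus the CD8 fraction at -0.51 (95% interval -1.31 to 0.28, limma adjusted p = 0.999), and DP overlapped both. DP minus the CD8 fraction was -0.30 (SE 0.37) and DP minus the CD4 fraction 0.21 (SE 0.37). The other tested ACLY probe, A_72_P165331, gave 0.26, -0.20 and -0.46 for DP minus CD4, DP minus CD8 and CD4 minus CD8. The third ACLY probe was well above background on 5 arrays and was not tested.

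ACACA was close to the detection limit. A_72_P305844 was well above background on DP arrays 1 and 2, at -0.95 and -1.64, and on no other array. No fold is given, since DP array 3 was itself not well above background. A_72_P442314 was well above background on CD4 array 1 alone.

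SREBF1 separated the slides rather than the fractions, a pattern noticed after its values were seen. A_72_P326973 read 2.07, 1.80 and 4.46 on DP arrays 1 to 3, 3.76, 2.53 and 4.43 for CD4 and 2.07, 1.27 and 4.10 for CD8. The high readings were DP array 3, CD4 arrays 1 and 3 and CD8 array 3, which are the 4 arrays of slide 3. Their mean was 4.19, against 1.95 over the other 5 arrays, a gap of 2.24. A_72_P223967 showed the same split, with a mean of 0.39 on slide 3 and -0.90 elsewhere, and was not well above background on CD4 array 2 or CD8 array 2. Of all tested probes 3.31% had slide 3 above every other array, and none of the 6 SCD probes had. The reverse, slide 3 below every other array, was seen for 2 of the 14 member probes, A_72_P642341 of ACADL and A_72_P165331 of ACLY, and for 2.56% of all tested probes. The 3 arrays numbered 3 all lay on slide 3, so slide and number are largely shared, and their parts in this pattern were not tested.

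Between fractions the intervals of SREBF1 were wide. A_72_P326973 gave -0.80 for DP minus the CD4 fraction (95% interval -2.53 to 0.94), 0.30 for DP minus the CD8 fraction (-1.44 to 2.04) and 1.09 for the CD4 minus the CD8 fraction (-0.64 to 2.83). Within slide 2 these 3 differences were -0.73, 0.13 and 0.86, and within slide 3 they were 0.37, 0.37 and -0.0024. Over the 9 arrays SREBF1 correlated with SCD at r = -0.32.

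**Figure D4:**
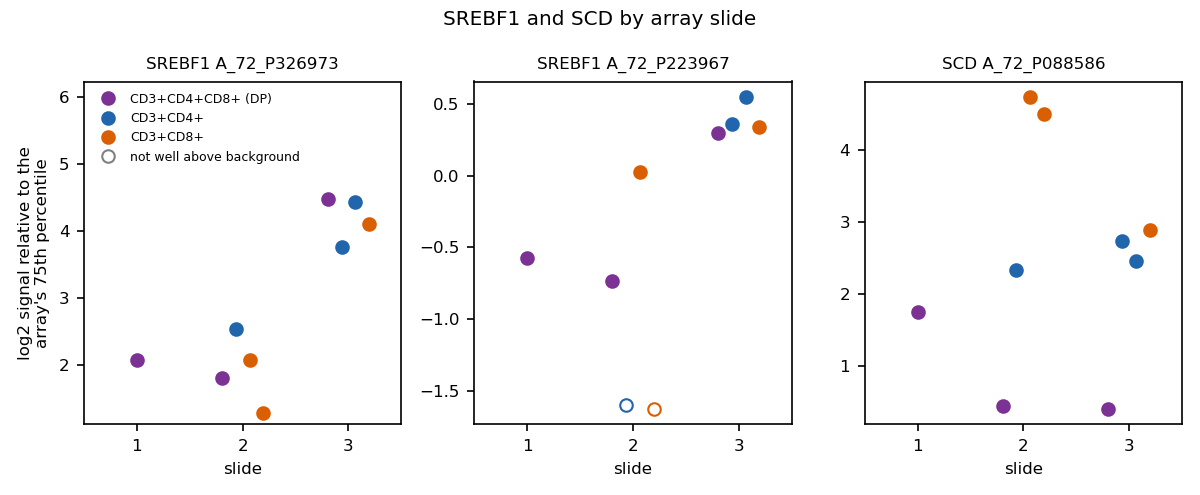
Levels of SREBF1 by its 2 probes and of SCD by A_72_P088586 (log2 relative to the 75th percentile, y axis, a scale per panel) by slide (x axis), with 1 point per array coloured by fraction and open where not well above background. By both SREBF1 probes the 4 arrays of slide 3 lie above the other 5, at a mean of 4.19 against 1.95 by A_72_P326973. For SCD the fractions do not overlap by A_72_P088586, though on slide 3 CD4 array 1 reads 2.74 and CD8 array 3 reads 2.89. On the other tested SCD probes, not shown here, the CD4 and CD8 arrays overlap.

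ACADL, on the side of oxidation, was highest on CD8 arrays 1 and 2. A_72_P587126 read 1.34, 0.46 and 0.38 in DP, 0.18, 0.39 and 0.36 in CD4 cells and 1.44, 1.83 and 0.60 in CD8 cells. The CD8 arrays lay above all CD4 arrays and overlapped DP. The CD4 minus the CD8 fraction was -0.98 (SE 0.46, 95% interval -1.97 to 0.01, limma adjusted p = 0.999). DP minus the CD8 fraction was -0.57 (SE 0.46) and DP minus the CD4 fraction 0.41 (SE 0.46). A_72_P672943 gave -0.79 for DP minus the CD8 fraction, and A_72_P642341 gave -0.60. The other 3 ACADL probes were well above background on 5 arrays each and were not tested.

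ACADL and SCD were high on some of the same arrays of DP and of the CD8 fraction, while in the CD4 fraction this depended on the ACADL probe. Between A_72_P587126 and A_72_P088586 r was 0.63 over 9 arrays, and 0.90 after fraction means were subtracted. Both genes were higher on DP array 1 than on DP arrays 2 and 3, and higher on CD8 arrays 1 and 2 than on CD8 array 3. In the CD4 fraction array 1 was the highest in SCD by A_72_P088586 and the lowest in ACADL by A_72_P587126. By A_72_P672943 of ACADL array 1 was the highest, at 0.62 beside 0.02 and -0.04. A_72_P642341 of ACADL was lowest on CD4 array 3, at -1.31 beside -0.50 and -0.40. CD8 arrays 1 and 2 lay on slide 2 and CD8 array 3 on slide 3. Of the 8 tested probes of the members other than SCD, limma called 0 in each comparison, and 0 had an unadjusted p under 0.05. Of all tested probes 4.84%, 6.51% and 4.54% had such a p in DP minus CD4, DP minus CD8 and CD4 minus CD8.

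Other genes of the fatty acid synthesis route were mostly not on the array by name. Of 31 listed, 7 had a named probe and 4 were tested, and limma called 0 in each comparison, with 0 at an unadjusted p under 0.05. Their median differences were -0.09, 0.38 and 0.23 for DP minus CD4, DP minus CD8 and CD4 minus CD8, beside -0.02, -0.03 and -0.01 over all tested probes. NR1H3, the liver X receptor alpha that induces SREBF1, gave -0.44 for DP minus the CD4 fraction (SE 0.40). ACSS2, which makes acetyl-CoA from acetate, gave 0.73 for DP minus the CD8 fraction and 1.05 for the CD4 minus the CD8 fraction (SE 0.50). NR1H3 was -0.26 in DP minus the CD8 fraction, so these genes did not share a direction there.

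Cholesterol synthesis and uptake, run by the related factor SREBP-2, gave 10 tested genes of 15 with a probe and 37 listed. Limma called 0 in each comparison, and 0 had an unadjusted p under 0.05. The medians were 0.05, -0.20 and -0.24 in the same order of comparisons. SQLE, squalene epoxidase, gave -0.93 for DP minus the CD4 fraction and -0.94 for DP minus the CD8 fraction (SE 0.50, limma adjusted p = 1.0 and 0.867), and differed by -0.01 between the CD4 and CD8 fractions. It read 0.44, -0.70 and -0.18 in DP, 1.54, 0.03 and 0.79 in CD4 cells and 1.09, 0.36 and 0.95 in CD8 cells, so the fractions overlapped. MSMO1, a sterol oxidase, gave -0.94 for the CD4 minus the CD8 fraction (SE 0.63).

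Fatty acid oxidation beyond ACADL gave 11 tested genes of 16 with a probe and 25 listed. Limma called 0 in each comparison. At an unadjusted p under 0.05 there was 1 gene in DP minus CD4, 1 in DP minus CD8 and 0 in CD4 minus CD8. Of all tested probes 4.84%, 6.51% and 4.54% had such a p, and nothing is read from these counts. The medians of the listed genes were 0.06, 0.02 and -0.21. DECR1, which handles unsaturated fatty acids during oxidation, was higher on every DP array than on every other array. It read 1.80, 1.55 and 2.48 in DP and 0.48, 0.93 and 1.13 in the CD4 fraction (difference 1.098, SE 0.42, adjusted p = 0.682), and DP minus the CD8 fraction was 0.89 (adjusted p = 0.782). ETFB, the electron acceptor of the acyl-CoA dehydrogenases, gave -0.84 for DP minus the CD8 fraction (SE 0.39, adjusted p = 0.762) and -0.82 for the CD4 minus the CD8 fraction. It read 4.05, 4.38 and 3.21 on the CD8 arrays, with arrays 1 and 2 high, as for ACADL.

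Storage, uptake and activation of fatty acids gave 9 tested genes of 26 with a probe and 32 listed. Limma called 0 in each comparison, and 1 gene had an unadjusted p under 0.05 in DP minus CD4, 1 in DP minus CD8 and 0 in CD4 minus CD8. The shares of all tested probes were 4.84%, 6.51% and 4.54%, and nothing is read from these counts. The medians of the listed genes were -0.36, 0.23 and 0.57. ACSL3, which activates fatty acids by joining them to coenzyme A, read 0.91, 0.81 and 1.41 in DP, 1.94, 1.70 and 2.14 in CD4 cells and 1.55, 2.21 and 1.93 in CD8 cells. Every DP array lay below every other array, and the differences were -0.88 against the CD4 fraction (SE 0.39, adjusted p = 0.934) and -0.85 against the CD8 fraction (adjusted p = 0.754). LIPE, hormone-sensitive lipase, gave 0.93 for the CD4 minus the CD8 fraction (SE 0.62). Of the 17 untested genes of this list, 6 were well above background on 0 of 9 arrays.

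**Figure D5:**
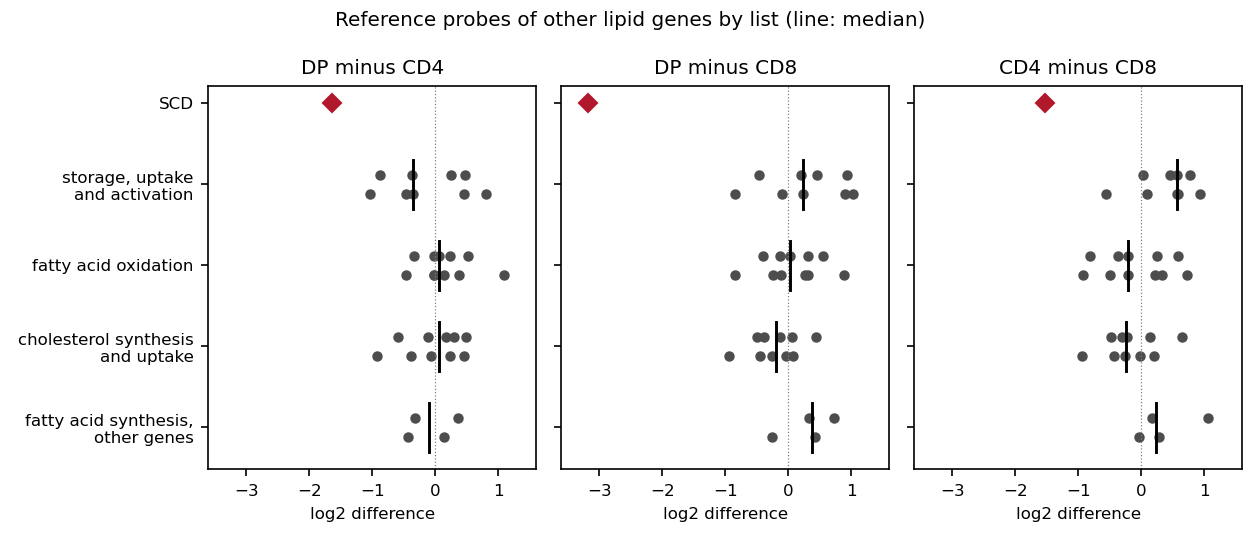
Difference between fractions (log2, x axis) of the brightest tested probe of each other lipid gene, by list (y axis), with a line at the median of the list, in the 3 comparisons; the diamond is SCD by A_72_P088586. The list genes lie between -1.04 and 1.098, and SCD lies at -1.64, -3.17 and -1.53. Nothing is read from this distance, since SCD was chosen by DP minus CD8 and the other comparisons share arrays with it.

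The genes whose level ran most like SCD were ranked over 1502 named genes by the correlation of their brightest tested probe with A_72_P088586 over the 9 arrays. The leading 5 were RPL30 (r = 0.91), RPL14 (0.89) and RPS21 (0.88), which encode ribosomal proteins, APTX (0.87), a DNA repair gene, and IFN-ALPHA-4 (0.87). RPL30 stood at 7.43 ± 0.27 in DP, 7.69 ± 0.19 in CD4 cells and 8.07 ± 0.24 in CD8 cells (SD, n = 3), a far narrower span than that of SCD. IFN-ALPHA-4 was well above background on 6 of 9 arrays and APTX on 7, each on 1 of 3 DP arrays. Only the CD8 fraction, where SCD is high, had IFN-ALPHA-4 well above background on all 3 arrays. Its likeness to SCD is thus favoured by the detection rule. Among the members, ACADL ranked 142, ACLY 406, FASN 770 (r = 0.049) and SREBF1 1221, and SQLE ranked 121.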

How the data were processed

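Per the file headers, the scanner files came from Agilent Feature Extraction 11.0.1.1 in its protocol for 1 colour. The deposited intensity is linear, was corrected by that program for background and for trends across the slide, and was not scaled across arrays. Spot flags were deposited with it. Per the labels' protocols, RNA was extracted with Trizol and 25 ng was amplified before Cy3 labelling. The authors' processed table holds log2 values with a median of 2.60 in each column. No source used here names its program, larger values meant brighter spots, and its columns correlated with their best scanner file at r of 0.998 or more. CD8 columns 1, 2 and 3 followed scanner files 3, 1 and 2.

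The measure was log2 of that intensity, from which the 75th percentile over the same array was subtracted. Control spots and 1 to 12 flagged spots per array were left out, and no spot was saturated. The number of arrays limits the precision. All 9 arrays entered 1 fit in limma 3.58.1 (R 4.3.3), with a trend in the variance. Tests were two-sided, with p-values adjusted by Benjamini-Hochberg over 16024 probes. The fit was tested on simulated data. Besides the detection rule, a tested probe had at least 2 values per fraction. The gene name came through the accession for 6730 probes. A gene is given by its brightest tested probe unless the probe is named. From each list the gene with the smallest p per comparison was named where none was called, and the 5 genes most like SCD. Other genes were named after their values were seen. The members and lists were chosen with earlier results of these data known. The deviations of equally numbered arrays correlated at 0.31, -0.0667 and 0.647 for DP and CD4, 0.266, 0.329 and 0.33 for DP and CD8, and -0.0263, 0.141 and 0.387 for CD4 and CD8. On these values the numbers were taken to pair DP with CD8 only. The main fit had no block, and the block by number was run as an alternative. DP and CD8 arrays numbered 2 shared slide 2 and those numbered 3 shared slide 3. For these numbers the correlations therefore cannot tell a pairing from a shared slide. DP and CD8 arrays numbered 1 lay on different slides, and their deviations correlated at 0.266. What underlies these correlations was not tested. The normexp alternative used the deposited median intensities, in place of mean intensities. Figures were drawn with Python 3.11.15 and matplotlib 3.10.9. The values of 1 marker gene are not reported here.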

Additional observations from a re-analysis of the deposited data

How the results depend on the processing

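SCD by A_72_P088586 kept its negative DP minus CD8 difference under every alternative run. It did not pass the threshold with normexp (-2.05), with only probes above background on all arrays (-3.17), with a slide block (-3.52) or with the replicate block when the CD8 arrays were numbered as in the processed table (-3.17), an alternative chosen after seeing the data. It ranged from -3.75 to -2.82 with 1 array left out and passed in 3 of 9 such fits. Within slide 2 the DP minus CD8 difference was -4.17, and the CD4 minus CD8 difference was -2.28 there and -0.29 within slide 3. With 1 array left out, the DP minus CD4 difference ranged from -2.08 to -1.42 and the CD4 minus CD8 difference from -2.10 to -1.18. A_72_P564094, also called in DP minus CD8, missed the threshold with normexp (-1.83) and with only probes above background on all arrays (-3.12). It missed it narrowly with the percentile over probes detected on all arrays (limma adjusted p = 0.0516) and with the processed values (0.0510). With 1 array left out it passed in 2 of 9 fits.

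Counts of called probes moved more. For DP minus CD4 there were 47, and 1 with normexp, 109 without a filter on dim probes, 12 with probes above background on all arrays, 144 with the replicate block, 30 with that block renumbered, 2 with the slide block and 2 to 54 with 1 array left out. For DP minus CD8 there were 50, and 7, 87, 5, 83, 21, 2 and 1 to 51 under the same settings, 22 with the percentile over probes detected on all arrays and 24 with the processed values. For CD4 minus CD8 there were 70, and 6 with normexp, 12 with probes above background on all arrays, 110 with the replicate block, 38 with the slide block and 31 to 83 with 1 array left out. DP array 1 was the one left out at the lowest counts of DP minus CD4 and DP minus CD8, and CD8 array 2 at that of CD4 minus CD8. The offset of 50 in normexp exceeds the 75th percentile of 8 of 9 arrays, which by construction pulls differences of dim probes toward 0; the cause of the other moves was not tested. Among the 6 tested SCD probes and the brightest tested probes of FASN, ACLY, SREBF1 and ACADL, the replicate block changed the call of A_72_P578058 alone.

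Some signs turned. FASN in CD4 minus CD8 was 0.061 with normexp and -0.25 to 0.13 with 1 array left out, and in DP minus CD8 -0.018 to 0.41. ACLY in DP minus CD4 was -0.021 to 0.47, SREBF1 in DP minus CD8 -0.54 to 1.11, and SCD by A_72_P647153 in DP minus CD4, at -0.74 with all arrays, -1.32 to 0.012, the last without DP array 3. Probes not well above background have only a bound, which limits ACACA and the dim SCD probes.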

Other observations

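Other lipid genes had the slide pattern of SREBF1 about as often as the array as a whole did. Of 79 tested probes of the listed lipid genes, 3 had all 4 arrays of slide 3 above the other 5, beside 3.31% of all tested probes. In 5 they lay below, beside 2.56% of all tested probes. The 3 were 1 probe each of DGAT2, which makes triglycerides (mean 1.00 on slide 3, -0.66 elsewhere), LIPE (0.05 and -1.27) and FDPS, an enzyme of the isoprenoid route (-0.17 and -1.88). Those below included ACADS, short-chain acyl-CoA dehydrogenase (2.97 and 4.14), and ECHS1, which hydrates enoyl-CoA in oxidation (1.92 and 2.50). These genes were chosen after their values were seen.

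INSIG1 holds SREBP precursors in the endoplasmic reticulum. By A_72_P186291 it read 0.64, -0.03, 0.57 and 0.45 on slide 3, -0.44 on slide 1 and -1.55, -0.71, 0.25 and -1.28 on slide 2. Slide 3 thus overlapped slide 2. Its other tested probe, A_72_P442208, had a mean of -1.53 on slide 3 and -1.65 elsewhere, and also overlapped.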
